A study of Mus musculus with 2 samples.

Results

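The genes described here encode heat shock proteins, their DnaJ cochaperones and the heat shock transcription factors. They were chosen by name alone, as symbols that begin with Hspa, Hspb, Hspd, Hspe, Hsph, Hsp90, Hsp1 or Hsp8, with Dnaja, Dnajb or Dnajc and a digit, or with Hsf and a digit. Of the 29383 gene symbols in the deposited table, 69 met this rule. Among these are 24 heat shock protein genes, 38 DnaJ genes and 5 symbols with the Hsf prefix. The remaining pair are Hspbap1, which encodes a protein that binds a small heat shock protein, and Hspe, which the table describes as heparanase and which is therefore no heat shock gene. Transcripts were counted by RNA sequencing in the apex of mouse hearts at embryonic stage E12.5. The KO group is Nkx2-5cre, Ezh2f/f and the Het group Nkx2-5cre, Ezh2f/+, so both carry the Cre driver, and the Het group has a floxed Ezh2 copy too. Ezh2 is the catalytic subunit of Polycomb repressive complex 2, and Nkx2-5 drives Cre in the heart lineage, so that other cells of the apex can keep Ezh2. The labels call the cells cardiomyocytes. Tissue of 8 hearts per group was pooled into 1 library, so the differences below lack a replicate check, and no p-value is given.

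Heat shock proteins are chaperones: they hold unfolded polypeptides and return them to a folded state or pass them on for degradation. HSP70 proteins bind and release their clients in a cycle that J-domain proteins (DnaJ, also called HSP40) start and nucleotide exchange factors complete, and HSP90 acts later, on clients such as kinases and hormone receptors. Small heat shock proteins bind unfolding proteins without ATP and are abundant in striated muscle, where they associate with the contractile apparatus. Heat shock factor 1 induces many of these genes when unfolded protein accumulates, while chaperones of the endoplasmic reticulum (ER) answer to the unfolded protein response.

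The promoters of 7 of these genes are printed because they carry the recognition letters of those pathways and belong to genes whose levels are compared below. The sequences are RefSeq windows of build GRCm38.p6, from 250 bases before to 50 bases after the annotated start, written 5′ to 3′ on the strand of the gene. Capitals mark matches to the heat shock element letters GAANNTTC or TTCNNGAA in the first 5, and to the ER stress element, CCAAT and CCACG at a fixed spacing, in the others, on either strand in both cases. The windows are Hspa1a at chr17:34972107-34972406 (minus strand), Hspa1b at chr17:34959189-34959488 (minus), Hspb1 at chr5:135887669-135887968 (plus), Hspe1 at chr1:55087898-55088197 (plus), Hsp110 at chr5:149636287-149636586 (minus), Hspa5 at chr2:34771840-34772139 (plus) and Hsp90b1 at chr10:86705395-86705694 (minus).
Hspa1a: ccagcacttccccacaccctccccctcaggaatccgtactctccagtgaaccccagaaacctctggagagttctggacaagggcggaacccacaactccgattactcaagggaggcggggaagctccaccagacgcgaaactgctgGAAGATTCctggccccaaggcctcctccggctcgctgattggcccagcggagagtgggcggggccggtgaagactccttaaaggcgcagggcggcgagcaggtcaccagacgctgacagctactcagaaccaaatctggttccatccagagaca
Hspa1b: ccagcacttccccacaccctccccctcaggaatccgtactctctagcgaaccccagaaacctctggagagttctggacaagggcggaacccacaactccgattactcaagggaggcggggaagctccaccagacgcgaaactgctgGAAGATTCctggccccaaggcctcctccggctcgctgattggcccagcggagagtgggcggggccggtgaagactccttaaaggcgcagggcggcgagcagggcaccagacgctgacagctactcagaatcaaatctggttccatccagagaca
Hspb1: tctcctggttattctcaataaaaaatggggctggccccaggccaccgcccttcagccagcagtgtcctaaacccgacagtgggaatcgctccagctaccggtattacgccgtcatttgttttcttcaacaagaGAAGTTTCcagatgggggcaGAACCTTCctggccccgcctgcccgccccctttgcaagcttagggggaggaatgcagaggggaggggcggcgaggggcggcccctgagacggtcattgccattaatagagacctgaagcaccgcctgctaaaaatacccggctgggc
Hspe1: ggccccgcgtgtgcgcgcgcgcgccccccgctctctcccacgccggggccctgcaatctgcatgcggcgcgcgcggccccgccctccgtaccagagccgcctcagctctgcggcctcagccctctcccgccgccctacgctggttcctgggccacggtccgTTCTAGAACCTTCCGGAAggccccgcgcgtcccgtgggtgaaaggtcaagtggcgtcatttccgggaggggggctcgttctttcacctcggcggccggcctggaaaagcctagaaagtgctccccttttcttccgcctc
Hsp110: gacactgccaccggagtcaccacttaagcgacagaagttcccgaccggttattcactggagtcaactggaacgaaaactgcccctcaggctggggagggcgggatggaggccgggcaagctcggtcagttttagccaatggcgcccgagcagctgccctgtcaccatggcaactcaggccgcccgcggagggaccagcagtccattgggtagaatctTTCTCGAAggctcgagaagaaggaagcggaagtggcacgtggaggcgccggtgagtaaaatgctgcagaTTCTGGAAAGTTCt
Hspa5: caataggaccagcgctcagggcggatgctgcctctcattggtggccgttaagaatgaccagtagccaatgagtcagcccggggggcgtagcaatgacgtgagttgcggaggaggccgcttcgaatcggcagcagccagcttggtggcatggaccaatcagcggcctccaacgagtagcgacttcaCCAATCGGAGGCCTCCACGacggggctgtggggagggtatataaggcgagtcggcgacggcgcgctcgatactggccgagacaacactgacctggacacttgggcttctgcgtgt
Hsp90b1: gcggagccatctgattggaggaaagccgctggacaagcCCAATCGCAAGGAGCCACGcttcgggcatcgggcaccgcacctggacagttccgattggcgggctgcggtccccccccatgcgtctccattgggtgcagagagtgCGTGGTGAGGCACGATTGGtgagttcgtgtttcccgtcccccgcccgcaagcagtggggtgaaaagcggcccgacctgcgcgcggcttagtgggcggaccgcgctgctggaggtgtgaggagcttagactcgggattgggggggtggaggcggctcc

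The windows of Hspa1a and Hspa1b, neighbouring copies of the stress-inducible HSP70 gene, differ at 4 of 300 bases and hold the same match, which begins 104 bases before the start. The Hspe1 window shares 285 of its 300 bases with a window of Hspd1, which is transcribed away from it on the other strand, so the capitals in it belong to both genes. Its 3 matches overlap and make 2 matches to the 3-unit form of the element, in which GAA and TTC units alternate with a pair of free bases between them. The Hspb1 window holds matches that begin 117 and 97 bases before the start. In the window of Hsp110, the older name of Hsph1, a match to the 3-unit form begins 36 bases after the start. Promoter windows were found for 55 of the 69 genes. The 2-unit letters were in the windows of 16 of these 55 (29.1%), against 17.0% of all 27025 genes with a window. The 3-unit form was in 4 of 55 (7.27%), against 0.662% of all genes, and these were Hspd1 and Hspe1, through the bases they share, Hsp110 and Dnajb6. ER stress element letters were in 3 of 55 (5.45%), against 0.137% of all genes, and the 3 were Hspa5, Hsp90b1 and Dnajc3a. The cyclic AMP element TGACGTCA was in none of the 55 and in 2.03% of all genes. A match is a description of letters and does not show that a factor binds there.

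The libraries held 14122579 reads (KO) and 13944617 reads (Het). Ezh2 itself had 319 reads in KO and 493 reads in Het, a KO over Het ratio of 0.601 (0.521 to 0.694), counted over the whole gene and not over the floxed exons alone. Here and below, levels are counts per 1000000 reads (CPM) scaled by the trimmed mean of log ratios (TMM), and a ratio is KO over Het of scaled counts with a 95% interval that covers counting error only. Cardiomyocyte markers were abundant, with 8 marker genes summing to 47135 CPM in KO and 47217 CPM in Het. That sum holds genes that differed in opposite directions: 4 had intervals above 1, led by the atrial light chain gene Myl7 at 1.67 (1.64 to 1.70), and 4 below 1, with the ventricular light chain gene Myl2 lowest at 0.858 (0.852 to 0.863). Markers of other cells were present too. Endocardial and endothelial genes summed to 705 CPM in KO and 771 CPM in Het, and erythroid genes to 3405 CPM in KO and 4281 CPM in Het. Smooth muscle and pericyte genes summed to 1406 CPM in KO and 1545 CPM in Het. Most of that was Acta2, at 936 CPM in KO and 1107 CPM in Het, and Cnn1, at 298 CPM in KO and 303 CPM in Het. Tagln had a ratio of 1.47 (1.37 to 1.58). Myh11 had 13 reads in KO and 25 in Het, and the pericyte gene Rgs5 7 reads in KO and 48 in Het. The sum alone thus does not show how much smooth muscle or pericyte RNA was present. Epicardial genes summed to 193 CPM in KO and 186 CPM in Het, and leukocyte genes to 29.5 CPM in KO and 37.6 CPM in Het. Spermatogenic genes summed to 5.08 CPM in KO and 5.62 CPM in Het, with Odf1 and Prm2 at 0 reads. Skeletal muscle genes summed to 333 CPM in KO and 414 CPM in Het, nearly all from Acta1, at a ratio of 1.77 (1.66 to 1.89), and Ckm, at 0.455 (0.431 to 0.480). Myf5 and Myf6 were at 0, Myod1 had 1 read in KO and 0 in Het, and Myog 4 reads in KO and 3 in Het. The sum therefore does not show that skeletal muscle cells were present. Neuronal and neural crest genes summed to 10.7 CPM in KO and 9.61 CPM in Het, and hepatocyte genes to 1.10 CPM in KO and 2.22 CPM in Het. In bulk tissue, fewer cells of a type and less RNA per cell cannot be told apart.

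Chaperone genes were among the abundant transcripts and few of them were 1.5-fold apart between the libraries. Together they took 0.912% of KO reads (Wilson 95% interval 0.907 to 0.917) and 0.888% of Het reads (0.883 to 0.892), and the 5 with most reads held 57.9% of that in KO and 57.0% in Het. After TMM scaling the order turned, with sums of 8847 CPM in KO and 9149 CPM in Het. Of the 69 genes, 59 had at least 1 CPM in a library, and all 59 had it in both. On the scale log2((KO CPM + 1)/(Het CPM + 1)), used below wherever a log2 ratio is given, 22 of the 59 were above 0 and 37 below, with a median of -0.06, which was 0.03 with scaling by total counts, where that of all genes was 0.07. Over all 16185 genes at this floor, 7897 were above 0, 8288 were below, and the median was -0.01. On that scale 2 chaperone genes, Hspa1a and Hspa1b, were at least 1.5-fold higher in KO, where 3.45% of all genes were, and 0 were at least 1.5-fold lower, where 1.88% of all genes were. None was 2-fold apart, against 0.605% of all genes higher and 0.173% lower. The counting interval lay above a ratio of 1 for 11 of the 59 (17.4% of all genes) and below 1 for 18 (19.1% of all genes), a measure that depends on the number of reads.

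**Figure D1:**
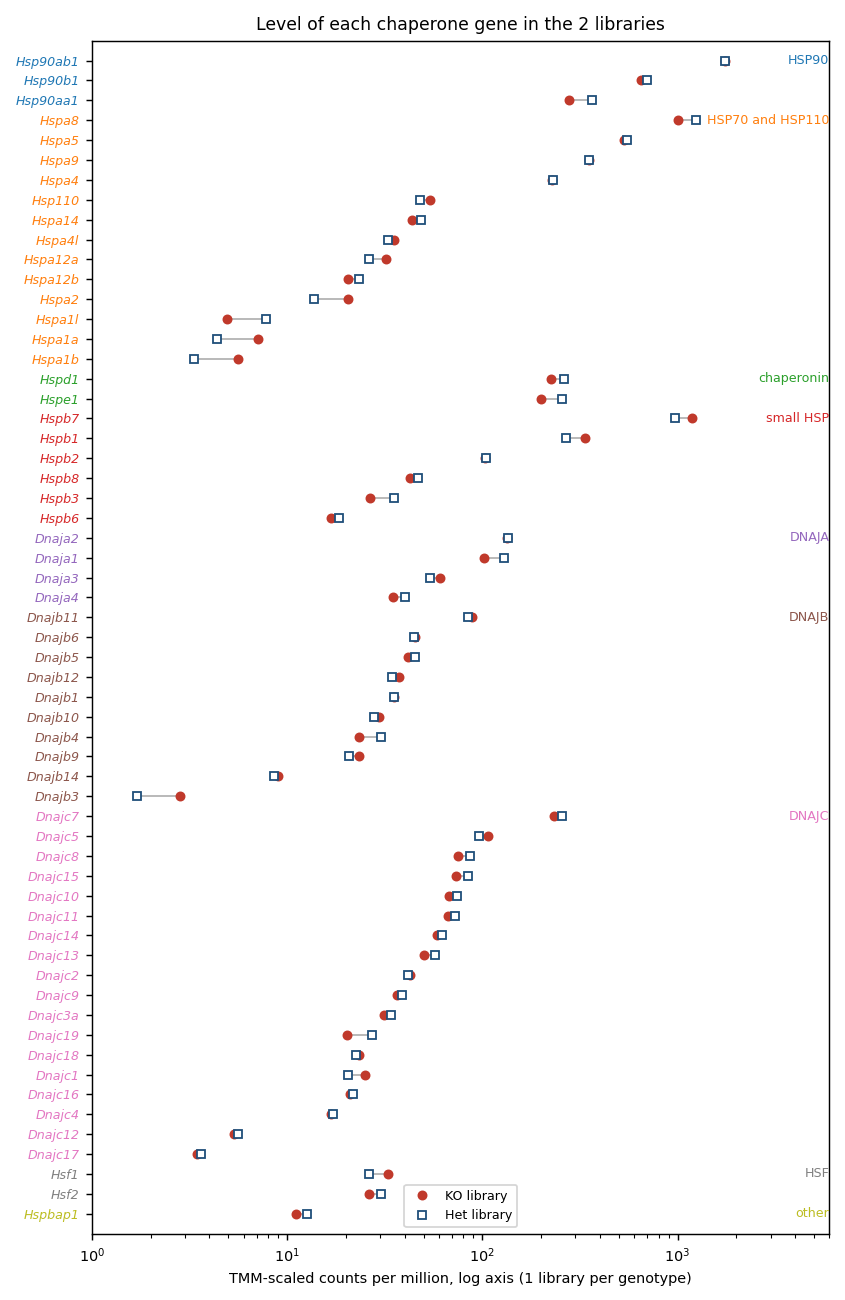
Level of the 59 chaperone genes with at least 1 CPM, in TMM-scaled CPM on a log axis, by class and within a class by mean level. Filled circles are the KO library and open squares the Het library, 1 library each; the symbols nearly coincide for most genes, and Hspa2, Hspa1l, Hspa1a, Hspa1b and Dnajb3 show the widest gaps.

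The cytosolic HSP90 pair divided: the inducible Hsp90aa1 was lower in KO, while the constitutive Hsp90ab1 was level. Hsp90ab1 (chromosome 17, 45704727 to 45710210, in the coordinates of the files, with the build not given in the sources used here) had 25531 reads (1754 CPM) in KO and 23557 reads (1741 CPM) in Het, and a ratio of 1.01 (0.989 to 1.03). It was the most abundant chaperone transcript of both libraries. Hsp90aa1 (chromosome 12, 111929246 to 111934605) had 4048 reads (278 CPM) in KO and 4956 reads (366 CPM) in Het, and a ratio of 0.759 (0.728 to 0.791). Hsp90aa1 made up 13.7% (exact 95% interval 13.3 to 14.1) of the reads of the pair in KO and 17.4% (16.9 to 17.8) in Het. Such a share does not depend on how the libraries are scaled, but it is not freed of the trend with base composition described below. Hsp90b1, the HSP90 of the ER, had 9501 reads in KO and 9493 in Het and a ratio of 0.930 (0.904 to 0.957). A model on the other strand, AK017634, overlaps it with 1676 reads in KO and 1694 in Het, and without known strand the reads of both can mix.

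Constitutive and inducible cytosolic HSP70 genes stood on opposite sides of 1. Hspa8 (chromosome 9, 40609356 to 40613282), which encodes the constitutive HSC70, had 14603 reads (1003 CPM) in KO and 16822 reads (1244 CPM) in Het, and a ratio of 0.807 (0.789 to 0.825). Against Hsp90ab1 in the same library, Hspa8 held 36.4% (35.9 to 36.9) of the reads of both genes in KO and 41.7% (41.2 to 42.1) in Het. The inducible gene Hspa1a (chromosome 17, 35106304 to 35109101) had 103 reads (7.08 CPM) in KO and 59 reads (4.36 CPM) in Het, and a ratio of 1.62 (1.17 to 2.27). Its copy Hspa1b (chromosome 17, 35093374 to 35096183) had 82 reads (5.63 CPM) in KO and 45 reads (3.33 CPM) in Het, and a ratio of 1.69 (1.16 to 2.49). Their reading frames in GENCODE M21 transcripts are 99.6% identical, with 8 differing bases and a run of 638 identical ones, and the handling of reads that match both was not given in the sources used here. If such reads were left out, the levels of both are too low. Added together, which removes the split between the copies but not a loss of shared reads, they had 185 reads in KO and 104 in Het and a ratio of 1.65 (1.29 to 2.12). On the log2 scale with 1 CPM added, neither copy was 1.5-fold apart after removal of the trend with base composition described below, and neither was with 5 CPM added. Without an added CPM, the log2 ratios after that removal were 0.52 for Hspa1a and 0.60 for Hspa1b, the second just past 1.5-fold.

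Hspa1l, a testis-biased HSP70 gene that starts 547 bases from Hspa1a on the other strand, went the other way. It had 72 reads (4.95 CPM) in KO and 105 reads (7.76 CPM) in Het, and a ratio of 0.637 (0.465 to 0.868). Of the reads of this divergent pair, Hspa1a held 58.9% (51.2 to 66.2) in KO and 36.0% (28.6 to 43.8) in Het. Aligned to each other, the transcripts of Hspa1a and Hspa1l share an identical run of 233 bases, so some of their reads may also be hard to place. Hspa2, an HSP70 known for its part in spermatogenesis, had 299 reads (20.5 CPM) in KO and 185 reads (13.7 CPM) in Het. Its ratio was 1.5 (1.25 to 1.81), and its log2 ratio of 0.55 was just under 1.5-fold. Testis-associated genes of the group had no common direction, and the spermatogenic markers, with Sycp3 at 50 reads in KO and 61 in Het and Ddx4 at 19 reads in KO and 12 in Het, were summed at about the level of Hspa1l. Their part in these values was not tested.

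The other HSP70 relatives were within 1.25-fold or had intervals that include 1. Hsp110, a nucleotide exchange factor for HSP70, had 786 reads in KO and 650 in Het and a ratio of 1.12 (1.01 to 1.25), while its relative Hspa4 had 3312 reads in KO and 3107 in Het (0.990, 0.943 to 1.04) and Hspa4l 516 reads in KO and 445 in Het (1.08, 0.947 to 1.23). Hspa5, which encodes BiP, the HSP70 of the ER, had 7719 reads in KO and 7481 in Het and a ratio of 0.959 (0.929 to 0.990). Hspa9, the mitochondrial HSP70, had 5100 reads in KO and 4783 in Het and a ratio of 0.991 (0.952 to 1.03). Hspa14 had a ratio of 0.906 (0.811 to 1.01). The distant relatives Hspa12a and Hspa12b differed: Hspa12a had 465 reads in KO and 354 in Het (ratio 1.22, 1.06 to 1.41), and Hspa12b 298 reads in KO and 314 in Het (0.882, 0.75 to 1.04). Hspa12b is known from endothelium, and all 6 endothelial and endocardial markers had log2 ratios below 0 (median -0.13), whose part in the value of Hspa12b was not tested.

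**Figure D2:**
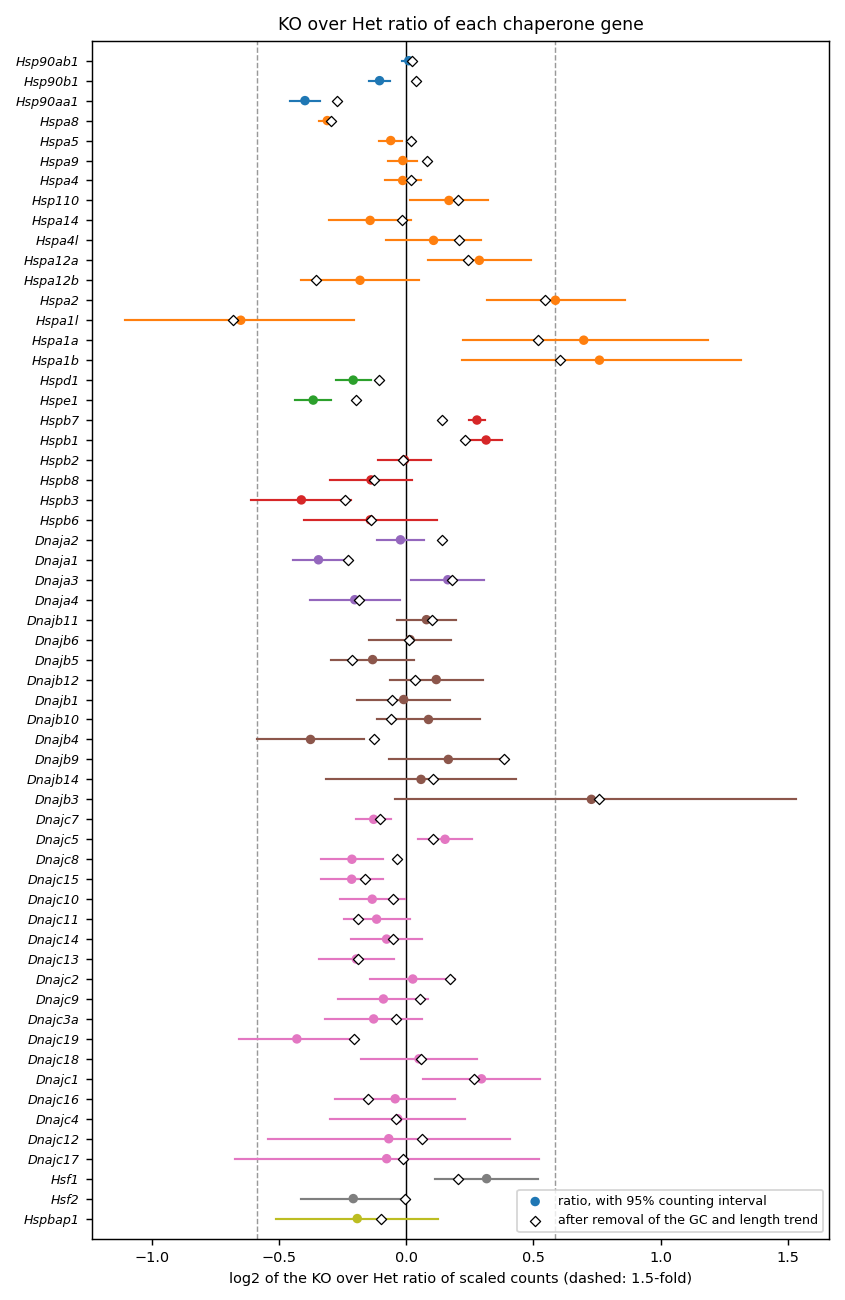
KO over Het ratio of the 59 chaperone genes on a log2 axis, in the gene order and class colours of the plot of levels. Filled circles are ratios of scaled counts with their 95% counting interval, open diamonds the same after removal of the trend with GC content and length, and dashed lines mark 1.5-fold; Hspa1a, Hspa1b and Dnajb3 lie farthest right and Hspa1l farthest left.

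The small heat shock proteins, chaperones of muscle, split as well, with the abundant pair Hspb7 and Hspb1 higher in KO and Hspb3 lower. Hspb7 (chromosome 4, 140976694 to 140981225), a heart-enriched member that binds filamin C, had 17229 reads (1183 CPM) in KO and 13203 reads (976 CPM) in Het, and a ratio of 1.21 (1.19 to 1.24). Hspb1 (chromosome 5, 136363929 to 136365307), known as HSP25 in the mouse, had 4864 reads (334 CPM) in KO and 3635 reads (269 CPM) in Het, and a ratio of 1.24 (1.19 to 1.30). The Hsp25 model of the table overlaps it on the same strand, with 5096 reads in KO and 3839 in Het, and is no separate measurement. Hspb3, a muscle member that pairs with Hspb2, had 385 reads (26.4 CPM) in KO and 476 reads (35.2 CPM) in Het, and a ratio of 0.752 (0.655 to 0.861). Its partner Hspb2 was level, with 1507 reads in KO, 1407 in Het and a ratio of 0.995 (0.925 to 1.07). Hspb2 overlaps its divergent neighbour Cryab, the alpha-B-crystallin gene, which had 5901 reads in KO and 5072 in Het, and without known strand their reads can mix. Hspb8, which works with Bag3 in clearing damaged filamin, had 617 reads in KO and 631 in Het (0.909, 0.812 to 1.02), and Hspb6 244 reads in KO and 250 in Het (0.907, 0.757 to 1.09). Hspb6 overlaps Gapdhs on the other strand, which had 129 reads in KO and 106 in Het. As a class, 2 of 6 small heat shock genes had log2 ratios above 0 and the median was -0.07, or 0.02 with scaling by total counts, while their summed reads were 24846 in KO and 19602 in Het, most of them from Hspb7 and Hspb1. Within each library, the share of Hspb1 in the reads of Hspb1 and Hspb7 was 22.0% (21.5 to 22.6) in KO and 21.6% (21.0 to 22.2) in Het, while that of Hspb3 beside Hspb7 was 2.19% (1.97 to 2.41) in KO and 3.48% (3.18 to 3.80) in Het. Single cardiomyocyte markers differed in both directions, as given above, and their part in these values was not tested.

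The chaperonin genes Hspd1 (HSP60) and Hspe1 (HSP10), whose products form the folding chamber of the mitochondrial matrix, were both lower in KO, and they start 472 bases apart on opposite strands of chromosome 1. Hspd1 (55134679 to 55144689) had 3291 reads in KO and 3533 in Het and a ratio of 0.866 (0.825 to 0.908). Hspe1 (55145161 to 55148150) had 2897 reads in KO and 3468 in Het and a ratio of 0.776 (0.739 to 0.816). The difference was unequal: Hspe1 made up 46.8% (45.6 to 48.1) of the reads of the pair in KO and 49.5% (48.4 to 50.7) in Het. The annotation lists 5 pseudogenes named after Hspd1 and 6 named after Hspe1, and reads that match them may have been placed at either. Of the 6 mitochondrial members, Dnajc19 and Dnajc15, J-proteins of protein import, had ratios of 0.742 (0.635 to 0.868) and 0.862 (0.792 to 0.938). Dnajc15 had 1064 reads in KO and 1147 in Het. By contrast, Dnaja3, a J-protein partner of the mitochondrial HSP70, had 880 reads in KO and 730 in Het and a ratio of 1.12 (1.01 to 1.24). Dnajc19 had 294 reads in KO and 368 in Het, and overlaps Fxr1, on the other strand, which had 1415 reads in KO and 1706 in Het. Counting intervals lay below 1 for 4 of these 6 genes (19.1% of all genes) and above 1 for Dnaja3 alone (17.4% of all genes). The median log2 ratio of the 6 was -0.21, or -0.12 with scaling by total counts and -0.13 after removal of the GC trend.

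None of the 7 ER members was more than 1.25-fold apart in scaled counts, though Dnajb9 had a log2 ratio of 0.38 after removal of the GC trend and Dnajc1 0.37 with scaling by total counts. Besides Hspa5 and Hsp90b1, Dnajc10, a J-protein with disulfide reductase activity, had 984 reads in KO and 1003 in Het, a ratio of 0.912 (0.834 to 0.996). Dnajc3a, an inhibitor of a stress kinase, had 456 reads in KO and 463 in Het (0.915, 0.802 to 1.04). The others had ratios above 1. Dnajb11, a BiP partner, had 1292 reads in KO and 1136 in Het (1.06, 0.975 to 1.15), and Dnajb9, which is induced by ER stress, 338 reads in KO and 280 in Het (1.12, 0.955 to 1.32). Dnajc1 stood at 1.23 (1.05 to 1.44). Dnajc1 had 366 reads in KO and 277 in Het and lies next to Mllt10 on the other strand, which overlaps it with 1027 reads in KO and 859 in Het. The 3 members with ER stress element letters in their window, Hspa5, Hsp90b1 and Dnajc3a, had log2 ratios of -0.06, -0.10 and -0.12. With scaling by total counts that of Hspa5 was 0.03, and after removal of the GC trend those of Hspa5 and Hsp90b1 were 0.02 and 0.04.

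Of the 32 DnaJ genes above the floor, 12 had log2 ratios above 0 and 20 below, against 7897 and 8288 of 16185 over all genes. The median was -0.05, and 0 were 1.5-fold apart on that scale. Among the type A genes, Dnaja1, an inducible partner of HSC70, had 1483 reads in KO and 1750 in Het and a ratio of 0.787 (0.734 to 0.844). Dnaja2, its constitutive relative, had 1939 reads in KO and 1830 in Het and a ratio of 0.985 (0.923 to 1.05). Dnaja1 thus held 43.3% (41.7 to 45.0) of the reads of both in KO and 48.9% (47.2 to 50.5) in Het. Dnaja4 had a ratio of 0.869 (0.769 to 0.983). Of the type B genes, Dnajb1, the classical inducible HSP40, was level at 512 reads in KO and 479 in Het (0.993, 0.875 to 1.13), and Dnajb6, which holds back aggregation and acts in muscle at the Z-disc, was at 1.01 (0.904 to 1.13). Dnajb4 was lower, with 340 reads in KO, 410 in Het and a ratio of 0.771 (0.665 to 0.892). Dnajb3, at 41 reads in KO and 23 in Het, had a ratio of 1.66 (0.971 to 2.89), with an interval that includes 1, and a log2 ratio of 0.50 once 1 CPM was added to both levels. It lies within models of the Ugt1a cluster on the other strand, which had 4 to 11 reads in KO and 7 in Het. The most abundant type C gene, Dnajc7, which links HSP70 and HSP90, had 3401 reads in KO and 3453 in Het and a ratio of 0.915 (0.873 to 0.960). It overlaps Cnp on the other strand, which had 391 reads in KO and 386 in Het. Dnajc5, the cysteine string protein of vesicles, had 1559 reads in KO and 1303 in Het and a ratio of 1.11 (1.03 to 1.2), and Dnajc8 and Dnajc13 had 0.863 and 0.873. Among type B, Dnajb5, Dnajb10, Dnajb12 and Dnajb14 had intervals that include 1, as had 9 further type C genes with ratios between 0.923 and 1.04. Type C genes had a median log2 ratio of -0.08, or 0.003 with scaling by total counts.

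Hsf1, the factor that induces chaperones under stress, was higher in KO and Hsf2, which acts in development, lower. Hsf1 (chromosome 15, 76307875 to 76331402) had 477 reads (32.8 CPM) in KO and 356 reads (26.3 CPM) in Het, and a ratio of 1.25 (1.08 to 1.43). Hsf2 (chromosome 10, 57206292 to 57232941) had 382 reads (26.2 CPM) in KO and 410 reads (30.3 CPM) in Het, and a ratio of 0.866 (0.751 to 0.998). Hsf1 made up 55.5% (52.1 to 58.9) of their reads in KO and 46.5% (42.9 to 50.1) in Het. This share is not freed of the GC trend described below, as Hsf1 has 57.8% GC and Hsf2 41.1%. After removal of that trend the log2 ratios were 0.19 for Hsf1 and 0.002 for Hsf2. The others were near the limit of detection, with 7 reads in KO and 2 in Het for Hsf4, 2 reads in KO and 1 in Het for Hsf5, and 1 read in KO and 7 in Het for Hsf2bp, a partner of Hsf2 named after it. The cytosolic genes listed as heat shock responsive did not share a direction. Of these 10 genes, which include the largely constitutive Hspa8 and Hsp90ab1, 6 had log2 ratios above 0 and 4 below, with Hspa1b highest at 0.62 and Hsp90aa1 lowest at -0.40, and the median was 0.06. Among genes that have a promoter window, those with and without the heat shock element letters overlapped in their log2 ratios. The 14 genes above the floor with the 2-unit letters ran between -0.40 and 0.62 with a median of -0.13, of which 5 were above 0. The 34 genes with a window that lacks them ran between -0.56 and 0.55 with a median of -0.05, of which 12 were above 0. The Hspd1 and Hspe1 windows share the letters, so these genes are not independent in that count. Genes without a window, Hspa8, Hsp90aa1, Hsp90ab1, Hspb2 and Hsf1 among them, entered neither group, so the letters were not compared for them. The split was made on ratios from which the GC trend was not removed. Windows of the inducible Dnajb1 held no match, so the letters miss such genes, and nothing about heat shock factors is read from the split.

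Divided by the length of the longest coding transcript in GENCODE M21, the 6 highest chaperone genes were the same in both libraries but in another order. In KO the order was Hsp90ab1 (696 CPM per kilobase), Hspb7 (427), Hspa8 (419), Hspb1 (359), Hspe1 (257) and Hsp90b1 (231). In Het it was Hsp90ab1 (691 CPM per kilobase), Hspa8 (519), Hspb7 (352), Hspe1 (331), Hspb1 (289) and Hsp90b1 (248). The small heat shock proteins Hspb7 and Hspb1 thus each stood above a housekeeping chaperone in KO that stood above them in Het. Hspb7 and Hspa8 were close in KO, at 427 and 419 CPM per kilobase. This order depends on the transcript length taken and is not freed of the trend with base composition and length described below. At the other end, 10 genes stayed under 1 CPM in both libraries. Dnajb8 and Dnajc5g had 0 reads in both, which allows up to 3 counts in each library, Dnajc5b had 0 in KO and 6 in Het, and Dnajc6, Dnajb13, Dnajb7 and Hspe had between 3 and 14 reads in each.

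Over all genes the log2 ratio followed the base composition of the transcript, which can touch the values above. The extent differed by gene: a trend fitted on GC content and length was -0.01 for both Hsp90ab1 and Hspa8, against 0.18 for Hspa1a and -0.25 for Dnajb4. Across 10891 genes whose mean reached 5 CPM, which are not independent replicates, the Spearman rho of the log2 ratio with GC content was 0.44, with medians of -0.18 over the GC-poorest 10% and 0.17 over the GC-richest 10%. Among 56 chaperone genes at this level rho was 0.28. Among the chaperone genes, the GC-rich Hspb1 (61.7% GC), Hspa1a (58.9%), Hspa1b (58.1%), Hsf1 (57.8%) and Hspb7 (57.5%) were higher in KO, and the GC-poor Dnajb4 (39.0%), Dnajc19 (40.3%), Dnaja1 (41.2%) and Hsp90aa1 (43.7%) were lower. Others of like GC content did not go the same way: the GC-rich Hspb2 (59.6%), Hspa12b (57.9%) and Dnajc4 (57.4%) had ratios of 0.995, 0.882 and 0.977, and the GC-poor Hspa4l (39.5%) and Dnajb9 (40.6%) had ratios of 1.08 and 1.12. Hspb2 and Dnajc4 have short transcripts (773 and 1074 bases). With length in the fit their trend was 0.006 and 0.008, so both lay near it. For Hspa12b, Hspa4l and Dnajb9 the fitted trend was 0.17, -0.10 and -0.22. After removal of a trend on GC content and length, 0 chaperone genes were at least 1.5-fold higher, where 2.67% of all genes were, and 1, Hspa1l, was at least 1.5-fold lower at a log2 ratio of -0.59, where 1.19% of all genes were. Hspa1a and Hspa1b then had log2 ratios of 0.41 and 0.46, Hspa2 0.51, Hspb1 0.23, Hspb7 0.14 and Hsf1 0.19. Hspa8, at 51.2% GC, had -0.30 after removal and -0.31 before, whereas Hsp90aa1 had -0.27 and -0.40, Hspe1 -0.20 and -0.36, Hspb3 -0.23 and -0.40, Dnaja1 -0.22 and -0.34, and Dnajb4 -0.11 and -0.36, after and before removal in each. Hspe1 (51.7% GC) and Hspb3 (51.5%) are close to Hspa8 in GC content. Their transcripts are shorter, at 774 and 781 bases against 2394, so their shift came with the length term of the fit. The log2 ratio of Hsf2 was 0.002 after removal and -0.20 before. The part of base composition and of transcript length in these differences was not tested beyond this.

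**Figure D3:**
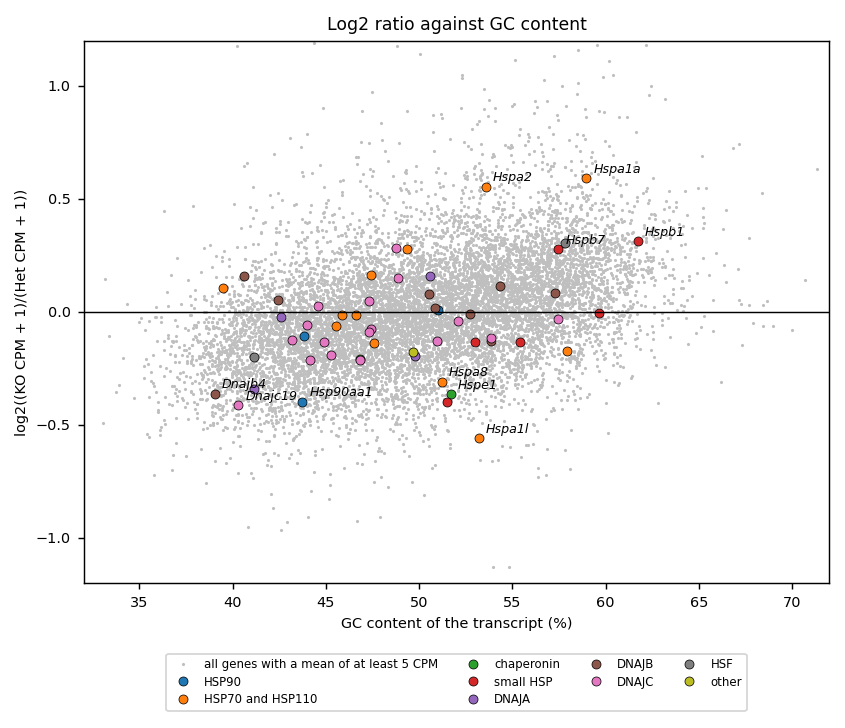
Log2 ratio of KO over Het (pseudocount 1 CPM) against the GC content of the transcript in percent. Grey points are all genes whose mean reached 5 CPM, 20 of which lie outside the axes, and coloured points are chaperone genes by class; the cloud rises to the right, Hspa1a and Hspb1 lie at its right and Hsp90aa1 and Dnajc19 at its lower left, while Hspa8, Hspe1 and Hspa1l lie low at middle GC content.

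Chaperone partners outside the name rule were compared as lists. Genes of the cytosolic chaperonin CCT and of prefoldin, which together fold actin and tubulin, lay lower. Of the 14 above the floor, 13 had log2 ratios below 0, against 8288 of 16185 over all genes. After removal of the GC trend it was 10 of 14, against 6774 of 13274 over all genes. The median was -0.23, below 0 under every scaling tried and -0.13 after removal of the GC trend. None of them was 1.5-fold apart. The subunit genes with the highest levels, Cct2 and Cct6a, had ratios of 0.911 (0.876 to 0.948) and 0.859 (0.826 to 0.893). HSP90 cochaperones had a median of -0.05, or 0.03 with scaling by total counts, and 0 were 1.5-fold apart. Of these 21 genes, 5 were above 0, and 9 after removal of the GC trend. Over all genes it was 7897 of 16185, and 6500 of 13274 after removal, which also holds for the lists below. Among the HSP90 cochaperones the myosin chaperone gene Unc45b had a ratio of 0.996 (0.947 to 1.05), and Smyd1, a muscle methyltransferase that acts with it, 0.909 (0.862 to 0.960). HSP70 partners had a median of 0.01 with 8 of 16 above 0, and 10 of 16 after removal of the GC trend. They were led in level by St13, at 0.999 (0.955 to 1.04), and Bat3, the gene of BAG6, at 1.26 (1.2 to 1.33). The log2 ratio of Bat3 was 0.34 before and 0.10 after removal of the GC trend. ER folding genes and genes of the unfolded protein response had a median of 0.07 with 13 of 23 above 0, both before and after removal of the GC trend for the count. The lectin chaperone Calr was at 1.05 (1.02 to 1.08) and the collagen chaperone Serpinh1 at 0.988 (0.967 to 1.01). Lower genes of this list spread more widely, with log2 ratios between -0.40 for Derl2 and 0.45 for Ddit3. After removal of the GC trend these were -0.26 and 0.52. Mitochondrial chaperones and proteases had a median of 0.13, and just under 0 after removal of the GC trend, with 5 of 9 above 0 before removal and 4 of 9 after. The 2 with the highest levels were the mitochondrial HSP90 gene Trap1, at 0.916 (0.859 to 0.978), and the protease gene Yme1l1, at 0.860 (0.797 to 0.928). The log2 ratio of Yme1l1 was -0.21 before and -0.02 after removal of that trend. These 2 were the only ones of the 9 with counting intervals below 1 (19.1% of all genes). Intervals lay above 1 for 4 of the 9 (17.4% of all genes), with Clpp highest at 1.25 (1.10 to 1.42).

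Other genes that answer to heat or handling stress were set beside Hspa1a and Hspa1b. Of 10 other heat shock responsive genes above the floor, 6 had log2 ratios above 0, against 7897 of 16185 over all genes, and the median was 0.10. The metallothionein gene Mt2 was the 1 member at least 1.5-fold apart, with 435 reads in KO, 250 in Het and a ratio of 1.62 (1.38 to 1.90). Immediate early genes, which dissection can induce, had log2 ratios above 0 in 14 of 16, with a median of 0.12, against 7897 of 16185 over all genes. After removal of the GC trend it was 10 of 16, with a median of 0.09, against 6500 of 13274 over all genes. Jun had 1525 reads in KO and 1165 in Het and a ratio of 1.22 (1.13 to 1.31), and Jund1 1.04 (0.985 to 1.10). Before removal of the GC trend the immediate early genes thus leaned the same way as the inducible HSP70 genes, and less so after it. The part of the immediate early genes in the values of Hspa1a and Hspa1b was not tested.

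**Figure D4:**
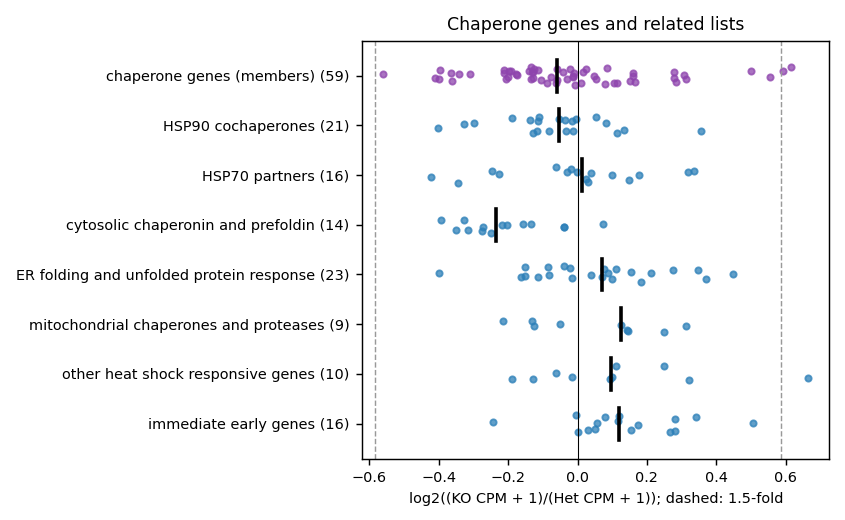
Log2 ratio of KO over Het (pseudocount 1 CPM) of the chaperone genes and of 7 related lists, 1 point per gene with at least 1 CPM, with the number of genes in parentheses; some genes are on more than 1 list. Black bars are medians, between -0.23 for the cytosolic chaperonin and prefoldin and 0.13 for mitochondrial chaperones and proteases, and dashed lines mark 1.5-fold.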

How the data were processed

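Read counts per gene model come from the table the authors deposited for both libraries, which held the same counts as the tables of single samples in all rows (0 differed). The deposited CPM are counts per 1000000 reads of the library, per the file headers and their values. The deposited fold ratio (Het over KO) and p-value columns name no test, per the file headers, and were not used. Aligner, counter, use of strand and build were not given in the sources used here. Starts were given 1 base more than in the files.

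Rows of a symbol were summed (29595 models, 29383 symbols). TMM factors, with 30% of ratios and 5% of levels trimmed, were 1.03 (KO) and 0.970 (Het), from edgeR 4.0.16 in R 4.3.3. Ratios have exact conditional Poisson intervals, computed with scipy and run on simulated libraries. The simulated counts were Poisson too, so that run checks the computation only and not the spread of real libraries. Intervals and floors cover counting error only: without molecular identifiers, reads are no independent molecules. The quadratic GC and log length trend used the longest coding GENCODE M21 transcript, matched by symbol or synonym for 59 of 59 chaperone genes above the floor and 82.0% of all genes there. Members, lists, sizes and alternatives were chosen with earlier results of these data known. Genes with values in full were those 1.5-fold apart, the 12 highest in level and the cytosolic inducible, small, ER, mitochondrial, testis and Hsf genes. From related lists up to 4 genes 1.5-fold apart, or else the 2 with the highest mean, were named. Others were named after their values were seen.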

Additional observations from a re-analysis of the deposited data

How the results depend on the processing

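The count of 2 chaperone genes at least 1.5-fold higher in KO was 0 with a pseudocount of 5 CPM, 0 after removal of the GC and length trend and 0 at 2-fold. It was 3 with total-count scaling, where Hspa2 was added at a log2 ratio of 0.64, and 3 with a pseudocount of 0.1 CPM, where Dnajb3 was added at 0.70. The count of 0 at least 1.5-fold lower was 1, Hspa1l, after removal of the trend and 1 with a pseudocount of 0.1 CPM, where Hspa1l was at -0.64. The median of the chaperone genes kept within 0.1 of -0.06 under every alternative tried, and was above 0 both with the trend removed (0.002) and when scaled by total counts (0.03). Of 59 plain ratios, with no CPM added, 11 changed side of 1 with total-count scaling, 4 with median-of-ratios factors, 4 with upper-quartile factors and 8 after removal of the trend, and among those with an interval off 1 this concerned Hspa5 in the first case and Hspa5 and Hsp90b1 in the last, while Hsf2 came to -0.005 there on the log2 scale (0.002 with 1 CPM added). Total-count scaling shifts the median of all genes by 0.08. Leaving out a library was not possible with 1 per genotype. No paired analysis was possible because each genotype has 1 library. The pool of 8 hearts hides the spread between animals.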

Other observations

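Some J-domain and heat shock genes carry another name in the table. RefSeq synonyms joined 11 such models, 2 of them (Rbj and Rabj) to the same gene, Dnajc27. Of the 10 above 1 CPM, 2 had log2 ratios above 0 and 8 below, against 7897 and 8288 of 16185 over all genes. The 10 had a median of -0.16, and 0 were at least 1.5-fold apart on that scale, which adds 1 CPM to both levels. The lowest, whose plain ratios of scaled counts were past 1.5-fold, were Rabj, with 63 reads in KO, 90 in Het and a ratio of 0.650 (0.464 to 0.907), and ORF28, now Dnajc28, with 66 reads in KO, 93 in Het and a ratio of 0.659 (0.474 to 0.914). Rbj, the other Dnajc27 model, had 231 reads in KO and 255 in Het and a ratio of 0.842 (0.701 to 1.01). Stch, now Hspa13, an ER relative of HSP70, had a ratio of 0.873 (0.757 to 1.01), and the HSP70 exchange factor Hspbp1, listed as 1500019G21Rik, 0.954 (0.841 to 1.08).

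Several chaperone genes start within 1000 bases of a gene on the other strand. Dnajb4 had 340 reads in KO and 410 in Het beside Fubp1, 375 bases away, with 2290 in KO and 2540 in Het and a ratio of 0.838 (0.791 to 0.887). Dnajc2 had a log2 ratio of KO over Het of 0.03 and its neighbour Psmc2, a proteasome subunit gene 118 bases away, -0.26. Hsf1 had 0.31 and its neighbour Bop1, 176 bases away, -0.003.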
